A study of Rattus norvegicus with 28 samples.

Results

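The genes described here are 8 genes of cholesterol synthesis and its control: Hmgcs1, Idi1, Fdft1, Sqle, Lss and Dhcr7, which encode enzymes of the pathway, and Insig1 and Srebf2, which encode regulators of it. They were chosen by name, and their probes were found by matching the accession of every non-control probe of a rat gene expression array to the RefSeq gene table. Each of the 8 genes had 1 probe among the 30367 probes of the array. All 8 probes were above background on all 14 arrays and none was saturated. RNA came from the whole hippocampus of adult male Sprague-Dawley rats 24 h after severe parasagittal fluid-percussion traumatic brain injury (TBI) or a sham operation (Sham). In the 3 treated groups an injured rat received 1 antidepressant by intraperitoneal injection 1 h after injury, at the same dose for each drug per the study's methods. These groups were TBI+Imipramine (a tricyclic antidepressant), TBI+Prozac (fluoxetine) and TBI+Zoloft (sertraline), the last pair being selective serotonin reuptake inhibitors. Sham had 2 rats and each other group had 3. The study's methods mention a vehicle, and the labels do not say which groups received it.

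Brain cells make nearly all of their own cholesterol, because lipoproteins of the blood do not cross the blood-brain barrier in quantity. Oligodendrocytes use much of it for myelin, and astrocytes supply neurons with it in particles that carry apolipoprotein E. The pathway is switched on by SREBP-2, the product of Srebf2, a transcription factor held in the endoplasmic reticulum by Scap and the Insig proteins while sterols are plentiful. When sterols fall, SREBP-2 is cut, enters the nucleus and raises the transcription of the synthesis enzymes and of Insig1. Cationic amphiphilic drugs, a class that takes in many antidepressants, can hold back cholesterol in lysosomes and raise these genes in cultured cells. The comparisons therefore ask which of the genes differed after injury, and which differed between treated and untreated injured rats.

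The promoters are shown because the genes are known as targets of one factor and because their scaled values moved together from rat to rat, as described below. RefSeq windows of build GRCr8, which run from 250 bases before to 50 bases after the gene's start, were given for 6 of the 8 genes, Hmgcs1, Idi1, Insig1, Lss, Dhcr7 and Srebf2. The motifs searched on both strands were the sterol regulatory element TCACNCCAC, the NF-Y box CCAAT and the Sp1 box GGGCGG. The sterol regulatory element in these letters was in 0 of the 6 windows and in 1.12% of all 33469 windows of the table. The NF-Y box was in 5 of the 6, all but Dhcr7, and in 37.5% of all windows. The Sp1 box was in 5 of the 6, all but Idi1, and in 33.1% of all windows. Matches of different motifs did not overlap each other in the 6 windows, while the pair of Sp1 boxes of Dhcr7 shared 1 base. The 250 bases before the start follow for an enzyme of the first part of the pathway (Hmgcs1), for the enzyme whose window held no Sp1 box (Idi1) and for the regulator (Srebf2), written 5′ to 3′ on the gene's strand, with the matches to an NF-Y or Sp1 box in either orientation in capitals. They lie at chr2:53382054-53382303 on the plus strand for Hmgcs1, at chr17:66547525-66547774 on the minus strand for Idi1 and at chr7:115543057-115543306 on the plus strand for Srebf2.
Hmgcs1: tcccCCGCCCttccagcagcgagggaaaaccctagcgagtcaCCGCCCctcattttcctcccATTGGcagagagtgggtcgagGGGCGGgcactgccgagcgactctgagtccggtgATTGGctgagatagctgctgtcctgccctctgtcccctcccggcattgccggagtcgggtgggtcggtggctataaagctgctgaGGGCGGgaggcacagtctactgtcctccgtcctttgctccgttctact
Idi1: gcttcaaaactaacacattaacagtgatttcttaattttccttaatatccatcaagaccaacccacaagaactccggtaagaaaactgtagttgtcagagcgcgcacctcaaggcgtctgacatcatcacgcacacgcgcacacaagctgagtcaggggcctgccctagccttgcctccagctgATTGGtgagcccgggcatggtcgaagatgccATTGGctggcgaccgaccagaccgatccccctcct
Srebf2: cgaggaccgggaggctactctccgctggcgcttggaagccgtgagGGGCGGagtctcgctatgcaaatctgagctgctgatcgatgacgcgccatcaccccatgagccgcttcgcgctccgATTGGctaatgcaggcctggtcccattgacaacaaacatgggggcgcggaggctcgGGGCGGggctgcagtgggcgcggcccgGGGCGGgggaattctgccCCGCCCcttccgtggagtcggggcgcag

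Values below are log2 ratios of a probe's signal to the 75th percentile of signal on its own array, taken over probes above background. They place one gene across rats and are not compared between genes, since different probes differ in brightness. A difference is a log2 fold change from limma with its standard error (SE) and 95% confidence interval, and a gene was called when its p, adjusted by Benjamini-Hochberg over all 17322 probes kept, was under 0.05. The arrays had 14676 to 18196 probes above background, the fewest in TBI rat 1, whose 75th percentile was also the highest of the 14. The Sham arrays were alone on 1 slide and were scanned on a different day from all other arrays. Slide, scan day and group thus cannot be told apart wherever Sham is compared. The TBI arrays shared a slide with 1 TBI+Prozac array while the other 8 drug arrays were on a slide of their own. Of the neuron markers looked at, Camk2a, Gad1, Neurod6 and Snap25 were above background on all 14 arrays, Syt1 on 13 and Prox1, a marker of dentate granule cells, on 0.

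Fdft1, an enzyme gene, was the 1 of the 8 that passed the test after injury, with a fall of 0.70 on the log2 scale (1.63-fold). All 8 genes had a lower mean in TBI than in Sham, except that Idi1 was at 0.24 with normexp background correction and that 3 differences were above 0 without TBI rat 1 and 1 without Sham rat 2. Of all probes, 16.6% passed it and 8.32% passed it with a lower value, so that 1 of 8 is near the background. The differences of the 8 genes ran from -0.70 at Fdft1 to -0.07 at Dhcr7, with a median of -0.40, where the median of all probes was 0.0015. All 3 TBI rats lay below both Sham rats at 2 genes, Fdft1 and Srebf2, and 21.4% of all probes separated the groups in that direction. The median of the 8 differences was -0.18 without TBI rat 1 and -0.61 without TBI rat 3, so that its size turned on these rats. The median of all probes was then 0.13 and -0.08.

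**Figure D1:**
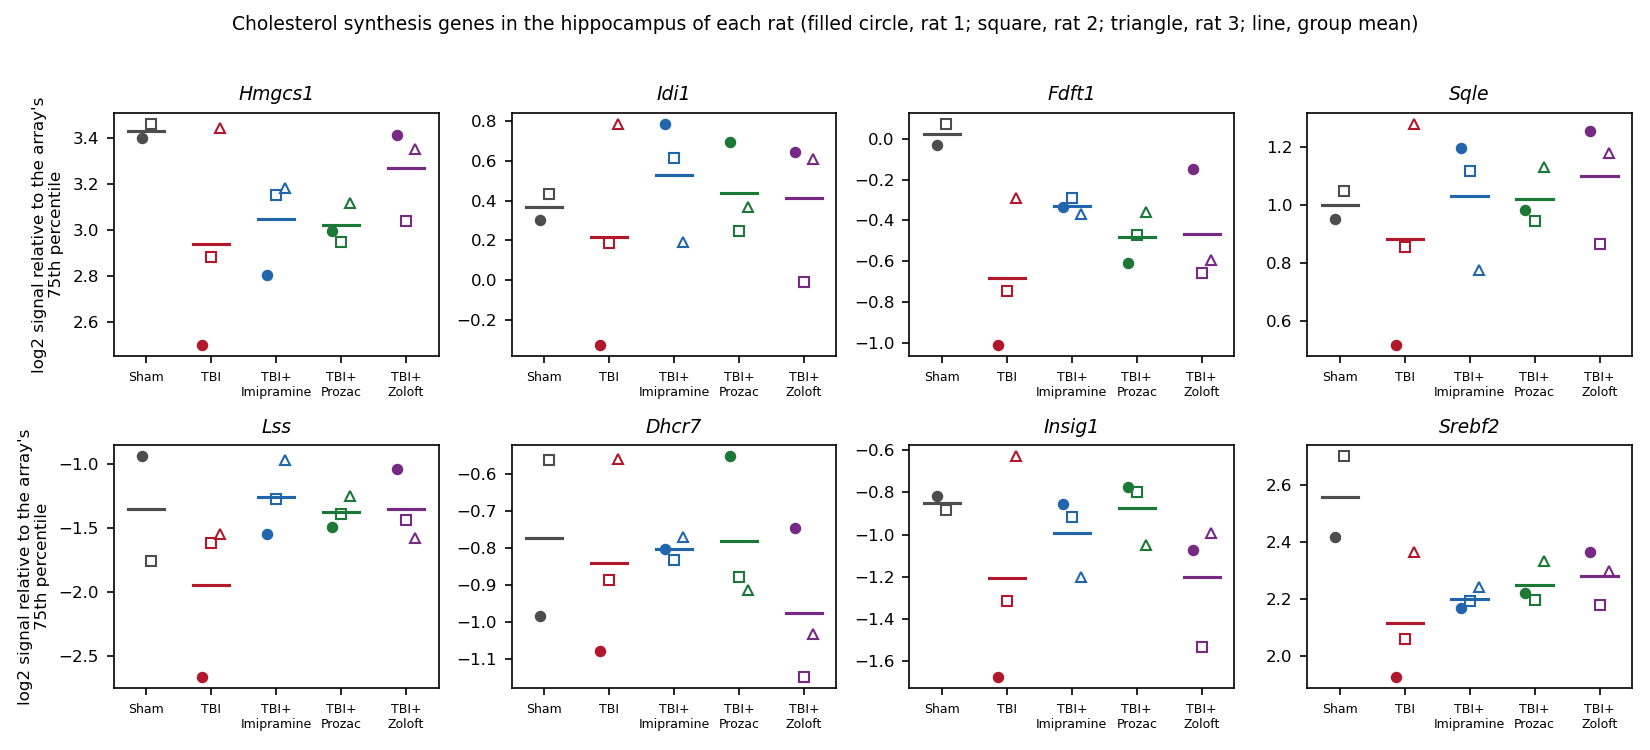
Log2 signal of each gene relative to the 75th percentile of its array (vertical axis, a separate scale for each gene) in each rat of the 5 groups (horizontal axis), with 1 point per rat and a line at the group mean. TBI rat 1 (filled circle) is the lowest of the 14 rats at 7 of the 8 genes, and TBI rat 3 (triangle) is the highest TBI rat at all 8.

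Hmgcs1 encodes cytosolic HMG-CoA synthase, which joins acetyl units early in the pathway. It was at 3.40 and 3.46 in the Sham rats and at 2.50, 2.88 and 3.44 in the TBI rats. With drug it was at 2.81, 3.15 and 3.18 after imipramine, at 2.997, 2.95 and 3.12 after Prozac and at 3.42, 3.04 and 3.35 after Zoloft. The TBI rats spread over the whole range of the treated rats and beyond it, and TBI rat 3 lay between the Sham rats. The difference between TBI and Sham was -0.49 (SE 0.23, 95% interval -0.99 to 0.01, limma adjusted p = 0.17). All imipramine and all Prozac rats were below both Sham rats, with differences of -0.38 and -0.41 (limma adjusted p = 0.25 and 0.26), and the Zoloft rats overlapped Sham at -0.16.

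Idi1 encodes isopentenyl diphosphate isomerase, which balances the isoprene units that later steps join. It was at 0.30 and 0.43 in Sham, and at -0.33, 0.18 and 0.79 in TBI. After imipramine it was at 0.78, 0.62 and 0.19, after Prozac at 0.70, 0.25 and 0.37, and after Zoloft at 0.64, -0.01 and 0.61. Every group overlapped every other, and the TBI rats ran from the lowest of the 14 values to the highest. The difference between TBI and Sham was -0.15 (95% interval -0.81 to 0.50).

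Fdft1 encodes squalene synthase, the first enzyme that commits isoprenoids to sterols. It was at -0.03 and 0.07 in the Sham rats, and at -1.01, -0.75 and -0.29 in the TBI rats. All 3 TBI rats were below both Sham rats, by a mean of -0.70 (SE 0.20, 95% interval -1.15 to -0.26, limma adjusted p = 0.034). Without TBI rat 1 the difference was -0.54 (limma adjusted p = 0.077), without TBI rat 2 it was -0.67 (0.090), without Sham rat 1 -0.75 (0.11), without Sham rat 2 -0.65 (0.18), and without imipramine rat 1, which changes the shared spread alone, the adjusted p was 0.051. Fdft1 was at -0.33, -0.29 and -0.37 after imipramine, at -0.61, -0.47 and -0.36 after Prozac and at -0.15, -0.66 and -0.59 after Zoloft. All 9 treated rats were also below both Sham rats, and all 9 were above the lower pair of TBI rats. The differences from TBI were 0.35 for imipramine, 0.20 for Prozac and 0.22 for Zoloft, and none passed the test (limma adjusted p = 0.30, 0.74 and 0.63).

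Sqle encodes squalene epoxidase, which adds oxygen to squalene. It was at 0.95 and 1.05 in Sham and at 0.52, 0.85 and 1.28 in TBI. The treated rats were at 1.20, 1.12 and 0.77 after imipramine, at 0.98, 0.94 and 1.13 after Prozac, and at 1.25, 0.87 and 1.18 after Zoloft. No pair of groups separated, and the difference between TBI and Sham was -0.12 (95% interval -0.58 to 0.34).

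Lss encodes lanosterol synthase, which folds the oxidised squalene into the first sterol. It was at -0.94 and -1.76 in the Sham rats, at -2.67, -1.62 and -1.55 in TBI, at -1.55, -1.28 and -0.97 after imipramine, at -1.49, -1.39 and -1.25 after Prozac, and at -1.04, -1.44 and -1.58 after Zoloft. The Sham rats themselves lay 0.82 apart, and TBI rat 1 lay more than that below the other TBI rats. Lss had the largest difference from TBI among the 8 genes for each drug. It was 0.68 for imipramine (SE 0.30, 95% interval 0.03 to 1.33, limma adjusted p = 0.23), 0.57 for Prozac (limma adjusted p = 0.55) and 0.59 for Zoloft (limma adjusted p = 0.38). All imipramine and all Prozac rats were above the 3 TBI rats, imipramine rat 1 by a margin too small to show at 2 decimals. Of all probes, 25.2% separated imipramine from TBI in that direction and 14.9% Prozac from TBI, and Lss was the only one of the 8 genes to do so. Without TBI rat 1 the Lss differences were 0.32 for imipramine, 0.20 for Prozac and 0.23 for Zoloft.

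Dhcr7 encodes 7-dehydrocholesterol reductase, the enzyme of the last step to cholesterol. It was at -0.98 and -0.56 in Sham, at -1.08, -0.89 and -0.56 in TBI, at -0.80, -0.83 and -0.77 after imipramine, at -0.55, -0.88 and -0.92 after Prozac, and at -0.74, -1.15 and -1.03 after Zoloft. It was the gene with the smallest difference between TBI and Sham, -0.07 (95% interval -0.49 to 0.35), and the only one whose mean was lowest in a treated group, TBI+Zoloft. It was also the only one with a lower mean in TBI+Zoloft than in TBI, by -0.13 (95% interval -0.51 to 0.24), though the difference was 0.21 with slide as a fixed term, and Insig1 was below TBI as well with quantile normalization and Idi1 with normexp.

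Insig1, the sterol-sensing anchor that SREBP-2 itself induces, was at -0.82 and -0.88 in Sham, and at -1.68, -1.32 and -0.63 in TBI. It was at -0.86, -0.92 and -1.20 after imipramine, at -0.77, -0.80 and -1.05 after Prozac, and at -1.07, -1.53 and -0.99 after Zoloft. The Sham rats were close together and lay inside the range of TBI, while all 3 Zoloft rats were below both. The differences were -0.36 for TBI against Sham (95% interval -0.93 to 0.21), 0.22, 0.33 and 0.01 for imipramine, Prozac and Zoloft against TBI, and -0.35 for Zoloft against Sham (95% interval -0.92 to 0.22).

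Srebf2, which encodes the transcription factor of the pathway, was at 2.42 and 2.70 in the Sham rats. It was at 1.92, 2.06 and 2.36 in TBI, at 2.17, 2.19 and 2.24 after imipramine, at 2.22, 2.20 and 2.33 after Prozac, and at 2.36, 2.18 and 2.30 after Zoloft. All 12 injured rats were below both Sham rats, with or without drug. The difference between TBI and Sham was -0.44 (SE 0.15, 95% interval -0.77 to -0.12), short of the threshold with an adjusted p from limma of 0.061, and with 1 array left out it ran from -0.59 to -0.30. The adjusted p from limma was then 0.020 without TBI rat 3, the only array whose absence brought it under the threshold, and reached 0.38 without Sham rat 2. Treated rats differed from Sham by -0.36 with imipramine (limma adjusted p = 0.10), by -0.31 with Prozac (0.18) and by -0.28 with Zoloft (0.29).

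Each drug was set against TBI to ask what it changed in injured rats, and none of the 8 genes passed the test for any of the 3 drugs. Of all probes, 2.85% passed it for imipramine, 0.00577% for Prozac and 1.38% for Zoloft. At an unadjusted p under 0.05 the counts of the 8 genes were 1 for imipramine, which was Lss, 0 for Prozac and 0 for Zoloft, where 19.7%, 10.1% and 15.2% of all probes reached it, and the t-test of the study's methods also gave 0 after Benjamini-Hochberg adjustment. The differences were above 0 at 8 genes for imipramine, 8 for Prozac and 7 for Zoloft, but at 3, 4 and 7 when each array was centred on its median probe and at 4, 7 and 6 with quantile normalization. Their medians were 0.18, 0.17 and 0.21. The median of all probes was itself 0.20 for imipramine and 0.15 for Prozac, against 0.015 for Zoloft, since most probes were higher in these groups than in TBI under this scaling. Relative to that shift, imipramine differences ran from -0.16 at Dhcr7 to 0.48 at Lss, Prozac differences from -0.09 at Dhcr7 to 0.42 at Lss, and Zoloft differences from -0.15 at Dhcr7 to 0.58 at Lss. All drug differences share the same 3 TBI rats. Without TBI rat 1 the differences were above 0 at 3, 4 and 5 genes, and their medians were -0.01, -0.0042 and 0.04. The medians of all probes were then 0.087 for imipramine, 0.032 for Prozac and -0.11 for Zoloft, so that the Zoloft median stayed above that of all probes. On the slide that held the TBI arrays, Prozac rat 1 was above the TBI mean at all 8 genes, by 0.05 to 0.48. With all Prozac rats, 80.9% of all probes had a higher mean than in TBI, and the share for rat 1 alone was not computed. The array of Prozac rat 1 was above the highest TBI rat at Dhcr7 and Lss alone and inside the TBI range at the other genes. With slide as a fixed term, which links drug and TBI through that array alone, 0 of the 8 genes passed the test for any drug.

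**Figure D2:**
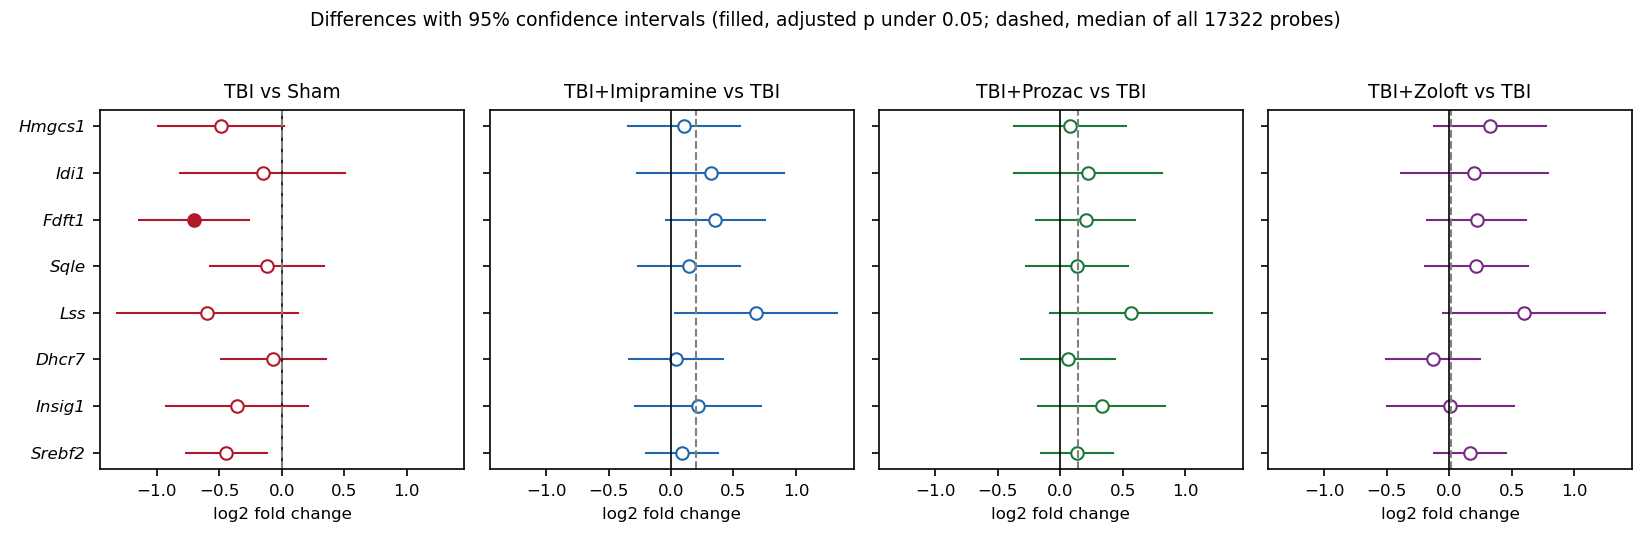
Log2 fold change of each gene (horizontal axis) with its 95% confidence interval for TBI against Sham and for each drug group against TBI, 1 row of points per gene. A filled point passed the test at an adjusted p under 0.05, which only Fdft1 did in TBI against Sham; the dashed line is the median of all probes, at 0.20 for imipramine and 0.15 for Prozac.

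The intervals give the sizes that 3 rats a group leave possible. For imipramine against TBI the upper ends ran from 0.37 at Srebf2 to 1.33 at Lss. For Prozac they ran from 0.42 at Srebf2 to 1.21 at Lss, and for Zoloft from 0.24 at Dhcr7 to 1.24 at Lss. A rise of 1 on the log2 scale lay inside the interval of Lss alone for each drug.

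Treated rats were also set against Sham to ask whether they had returned to its level. None of the 8 genes passed the test in these comparisons, where 23.4% of all probes did so for imipramine, 14.9% for Prozac and 5.95% for Zoloft. At an unadjusted p under 0.05 it was 1 gene in each, Srebf2 for imipramine and Fdft1 for Prozac and for Zoloft, where 36.6%, 29.9% and 22.3% of all probes reached it, and the methods' t-test gave 0 of 8 after Benjamini-Hochberg adjustment. In each comparison 3 genes had all treated rats below both Sham rats, where 17.6%, 15.6% and 18.5% of all probes did. They were Fdft1, Hmgcs1 and Srebf2 for imipramine and for Prozac, and Fdft1, Insig1 and Srebf2 for Zoloft. The median of all probes was 0.18 for imipramine and 0.14 for Prozac against Sham. When each array was centred on its median probe instead, Fdft1, Hmgcs1 and Srebf2 passed the test in both of these comparisons, with differences of -0.62, -0.65 and -0.63 for imipramine (limma adjusted p = 0.0100, 0.020 and 0.0030) and of -0.71, -0.62 and -0.52 for Prozac (0.0083, 0.033 and 0.011). Of all probes 30.9% passed with that centring for imipramine and 20.7% for Prozac, so that 3 of 8 is near the background for imipramine. Quantile normalization also gave 3 genes for imipramine and 3 for Prozac, beside 30.0% and 18.9% of all probes.

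The 3 drugs were compared with each other at the matched dose and time. A moderated F test of any difference among them called 0 of the 8 genes, and 3.18% of all probes, and 0 of the 8 had an unadjusted p under 0.05, where 22.5% of all probes did. Over the 8 drug arrays that shared a slide the count was also 0. Between pairs of drugs 0 of the 8 genes passed, where 0.00577% of all probes did so for imipramine against Prozac, 5.29% for imipramine against Zoloft and 3.69% for Prozac against Zoloft. In the 24 pairs of a gene and 2 drugs the lowest limma adjusted p, taken over all probes, was 0.47. The largest difference was 0.32, for Insig1 in Prozac against Zoloft, with a 95% interval that reached 0.83. The intervals of all 24 pairs lay between -0.70 and 0.83, so that differences of that size between drugs remained possible.

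Under this scaling the 8 genes shared a spread between animals of the same group. The mean over the 8 genes, each standardised over the 14 rats to SD units, was -2.11 in TBI rat 1, -0.75 in TBI rat 2 and 0.91 in TBI rat 3, the lowest and the highest of all 14 rats. It was 0.48 and 0.86 in Sham, 0.17, 0.28 and -0.06 after imipramine, 0.23, -0.15 and 0.14 after Prozac, and 0.73, -0.84 and 0.10 after Zoloft. Untreated injured rats thus spanned the range of all groups, and treated rats lay between them. The median over the genes of the range within a group was 0.85 in TBI, against 0.36 with imipramine, 0.25 with Prozac, 0.46 with Zoloft and 0.12 between the 2 Sham rats. Over all probes the median range in TBI was 0.46 and that in the other groups ran from 0.20 to 0.40. The values rest on each array's divisor, the 75th percentile, which was 2228 in TBI rat 1, 1698 in rat 2 and 1465 in rat 3. Before that division TBI rat 1 was the lowest TBI rat at Idi1 and Lss and the highest at Dhcr7 and Srebf2. It lay between the other TBI rats at Fdft1, Hmgcs1, Insig1 and Sqle.

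Correlations between the genes, given as a description over 14 rats that share slides and scaling, were above 0 for 28 of 28 pairs, with a median Pearson r of 0.57 and a range of 0.16 to 0.91. After group means were removed they were again above 0 for 28 of 28, with a median of 0.68. Without TBI rat 1, 23 of 28 were above 0 and the median was 0.32, and without that rat and Zoloft rat 2, the rats farthest from the median of the mean over the genes, the median was 0.26. The same share for pairs drawn from all probes was not computed.

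**Figure D3:**
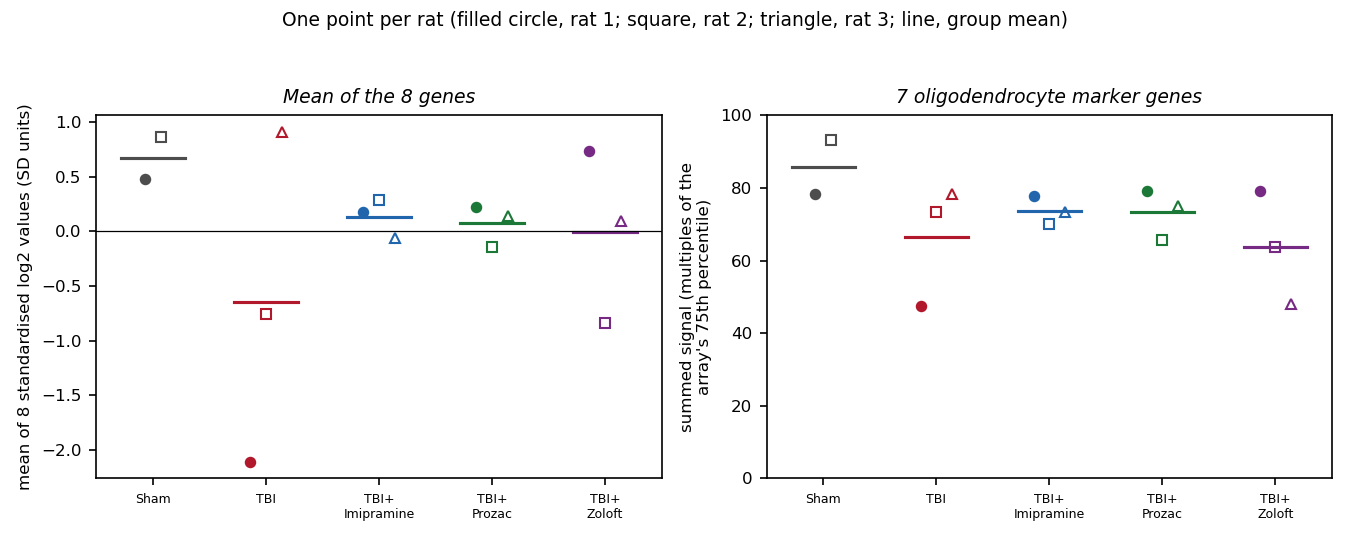
Left, the mean of the 8 genes' standardised log2 values (vertical axis, SD units) in each rat by group; right, the summed signal of 7 oligodendrocyte marker genes in the same rats, in multiples of the array's 75th percentile. TBI rat 1 is lowest in both, at -2.11 and 47.4; Zoloft rat 2 is second lowest on the left, at -0.84, and Zoloft rat 3, at 48.0, on the right.

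Markers of the cell types in the tissue moved with some of these values. The summed signal of 7 oligodendrocyte genes was 78.2 and 93.3 times the 75th percentile in Sham and 47.4, 73.4 and 78.5 in TBI, in the same order of the 3 rats as the 8 genes. It was 70.1 to 77.9 with imipramine, 65.7 to 79.2 with Prozac and 48.0 to 79.3 with Zoloft, where rat 3 was lowest and not rat 2. Among the 7, Mobp fell after TBI by 1.33 on the log2 scale (limma adjusted p = 0.033), while a further Mobp probe was at -0.36 (0.49). Astrocyte genes summed to 24.3 to 28.1 in Sham and 20.3 to 32.6 in TBI, microglia and macrophage genes to 2.74 to 3.88 and 4.75 to 5.20, and neuron genes to 13.3 to 14.1 and 10.6 to 14.1. Of the 6 astrocyte genes, 1 passed the test in TBI against Sham, with a higher value, beside 16.6% of all probes. The brightest probes of Aqp4 and Slc1a3 differed by -0.07 and -0.24. Further Aqp4 probes were at 1.19 and 0.39 (limma adjusted p = 0.012 and 0.51), and a further Slc1a3 probe was at 0.81 (0.016). Choroid plexus genes ran from 0.27 to 106.5 over the 14 rats, with high and low rats in every group, and blood genes from 7.69 to 18.2. In TBI each of these other sums also rose from rat 1 to rat 2 to rat 3. The order of the TBI rats was thus not particular to the oligodendrocyte genes. All 7 oligodendrocyte genes were above background on all arrays. The part of these cell types, and of the brightness of the TBI rat 1 array, in the result was not tested, and in bulk tissue fewer cells of a type and less RNA per cell cannot be told apart.

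The genes whose pattern was most like the mean of the 8 were taken from 9913 probes with a gene name, above background on all 14 arrays. They were Mat2b (Pearson r = 0.97), a regulatory subunit of methionine adenosyltransferase, Atp5f1a (0.95), a subunit of mitochondrial ATP synthase, Pdgfa (0.94), a growth factor of oligodendrocyte precursors, Enoph1 (0.94), an enzyme of methionine salvage, and Dync1li2 (0.92), a dynein light intermediate chain. After group means were removed the r of these 5 were 0.98, 0.93, 0.95, 0.92 and 0.93, and without TBI rat 1 they ran from 0.81 to 0.93. Mat2b was at 1.88 and 1.89 in Sham and at 1.19, 1.52 and 1.92 in TBI, the same order of TBI rats as the 8 genes. Among further genes of the pathway, Cyp51 had an r of 0.86 and ranked at place 56 of these probes, and Mvk had 0.70.

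A list of 16 further cholesterol synthesis genes served to place the 8 in the pathway, with 15 of them measured and kept. None of the 15 passed the test in TBI against Sham or for any drug against TBI. Their median difference was -0.09 in TBI against Sham, and 0.24, 0.12 and 0.04 for imipramine, Prozac and Zoloft, beside the all-probe medians of 0.0015, 0.20, 0.15 and 0.015. Cyp51, which encodes lanosterol demethylase, differed by -0.06 between TBI and Sham (95% interval -0.53 to 0.42) and by 0.03 to 0.12 between the drug groups and TBI.

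Of 15 genes of SREBP control and sterol uptake, 12 were kept, and 1 passed the test in TBI against Sham and 1 for imipramine against TBI, where 16.6% and 2.85% of all probes did. Both calls were Mylip, which encodes a ubiquitin ligase that limits sterol uptake and is known as a target of the liver X receptors. Mylip was at -1.27 and -1.36 in Sham, at -2.61, -2.22 and -2.10 in TBI, at -1.56, -1.23 and -1.59 after imipramine, at -2.16, -1.65 and -1.81 after Prozac, and at -1.51, -1.86 and -1.29 after Zoloft. Its TBI rats were below all Sham, imipramine and Zoloft rats. It fell by 0.99 after TBI (limma adjusted p = 0.0087) and rose by 0.85 with imipramine against TBI (limma adjusted p = 0.037), where the differences with Prozac and Zoloft were 0.44 and 0.76 (0.48 and 0.075). Without Sham rat 1 the adjusted p from limma of the fall was 0.066. That of the rise was 0.051 to 0.18 without either Sham rat, TBI rat 1 or 2, any 1 imipramine rat or Zoloft rat 1. The rise with imipramine was 0.62 with an adjusted p from limma of 0.11 when each array was centred on its median probe, and the other Mylip probe gave -0.02 for TBI and 0.49 for imipramine, with adjusted p from limma of 0.98 and 0.56.

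Srebf1, which encodes the related factor of fatty acid synthesis, was at -1.28 and -1.43 in Sham and at -2.04, -2.41 and -1.75 in TBI. The TBI rats were all lower, by a mean of -0.71 (limma adjusted p = 0.16), and the drug groups differed from TBI by 0.54, 0.30 and 0.24 (limma adjusted p = 0.32, 0.76 and 0.77).

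**Figure D4:**
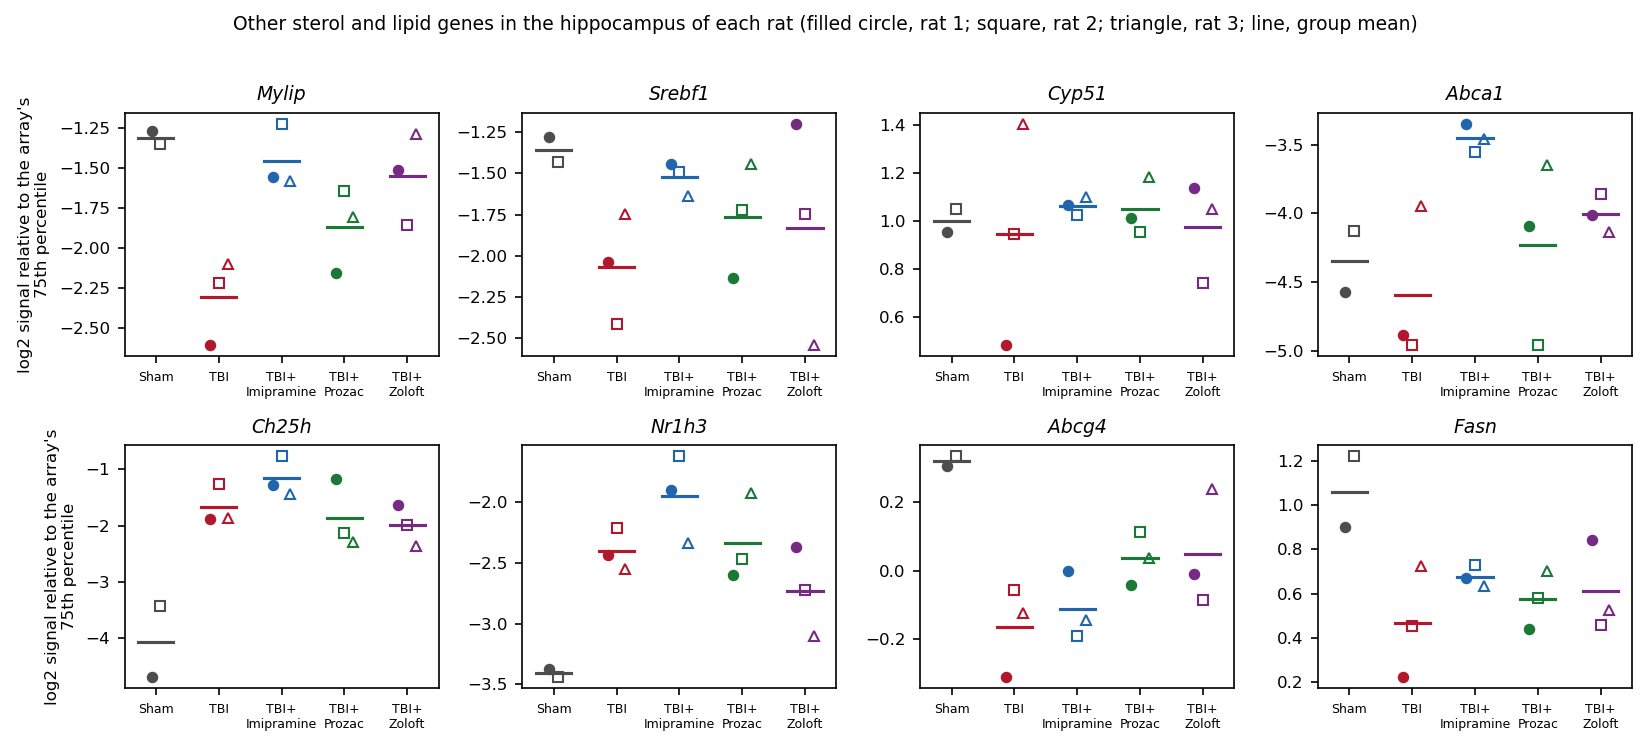
Log2 signal relative to the array's 75th percentile (vertical axis, a separate scale for each gene) of 8 other sterol and lipid genes in each rat of the 5 groups, with a line at the group mean. Ch25h and Nr1h3 are higher and Mylip, Srebf1, Abcg4 and Fasn lower in all 3 TBI rats than in both Sham rats.

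Of 12 genes of sterol efflux, storage and turnover, 10 were kept, and 3 passed the test in TBI against Sham, 2 higher and 1 lower, beside 16.6% of all probes. Ch25h, which encodes cholesterol 25-hydroxylase, the enzyme that makes an oxysterol able to hold back SREBP processing, was at -4.71 and -3.44 in Sham and at -1.88, -1.25 and -1.86 in TBI. It rose by 2.41 (SE 0.41, limma adjusted p = 0.0025), and the treated rats lay at -0.76 to -2.36, above Sham as well. Nr1h3, which encodes liver X receptor alpha, was at -3.38 and -3.44 in Sham and at -2.44, -2.22 and -2.55 in TBI, a rise of 1.01 (limma adjusted p = 0.021). Abcg4, a sterol exporter of neurons and glia, was at 0.31 and 0.33 in Sham and at -0.31, -0.05 and -0.12 in TBI, and fell by 0.48 (limma adjusted p = 0.031). Without Sham rat 1 or 2 the adjusted p from limma was 0.092 and 0.12 for Nr1h3 and 0.12 and 0.15 for Abcg4, and it was 0.067 for Nr1h3 without TBI rat 2 and 0.057 for Abcg4 without TBI rat 1. None of the 10 passed the test for a drug against TBI. Abca1, which encodes the exporter that loads apolipoproteins with cholesterol, was at -4.88, -4.96 and -3.95 in TBI and at -3.35, -3.55 and -3.46 after imipramine, a difference of 1.14 (95% interval 0.45 to 1.83, limma adjusted p = 0.078). With 1 array left out it ran from 0.96 to 1.47, with an adjusted p from limma of 0.034 without TBI rat 3, 0.044 without Prozac rat 2 and up to 0.26 without TBI rat 1. Apoe, which encodes the main sterol carrier of the brain, differed by -0.10 in TBI against Sham (95% interval -0.42 to 0.22) and by -0.15 to 0.03 for the drugs against TBI.

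Of 11 genes that SREBP drives in fatty acid synthesis, 9 were kept and 1 passed the test in TBI against Sham, beside 16.6% of all probes. Fasn, which encodes fatty acid synthase, was at 0.90 and 1.22 in Sham and at 0.22, 0.45 and 0.72 in TBI, and fell by 0.60 (limma adjusted p = 0.036). That adjusted p was 0.28 without Sham rat 2, and 0.051 to 0.086 without Sham rat 1, TBI rat 1 or 2, imipramine rat 1 or 2, or Prozac rat 2. No gene of the list passed the test for a drug against TBI, and Fasn differed by 0.21, 0.11 and 0.14 for imipramine, Prozac and Zoloft.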

How the data were processed

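The authors hybridised labelled RNA of the hippocampus of 14 rats to Agilent rat arrays in 1 colour, and the deposited scanner files hold spot intensity on a linear scale, background-subtracted by Agilent Feature Extraction 11.5.1.1, with other columns of 0 or 1 flags that the authors' software wrote for each spot. The deposited series table holds the authors' scaled intensity of the same arrays. The miRNA files were not used here. Groups came from the sample titles. Control spots and outlier spots were removed, and the 2 spots of a probe were averaged. The 75th percentile of the signal of probes above background served as the divisor of an array before log2 was taken, as the study's methods state. A probe counted as above background when over 0.5 of its spots did, and the filter kept 17322 of 30367 probes, those that passed on all arrays of 1 group or more. Genes were named by accession through the RefSeq table of GRCr8, which matched 18643 probes, and where a list gene had several kept probes the brightest was used. All 14 arrays entered 1 fit of limma 3.58.1 in R 4.3.3 (lmFit and eBayes, two-sided), and contrasts of groups, a moderated F test among the drugs and Benjamini-Hochberg adjustment over the kept probes followed. The scripts were tested on simulated data. The planned normexp alternative used the median spot signal, because the files read here had no mean signal column. Each rat gave 1 array, and the number of rats limits the precision.

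The 8 genes and all lists and tests were chosen with earlier results of these data known. The genes named were the 8, the list genes that passed the test in TBI against Sham or a drug against TBI, Cyp51, Srebf1, Abca1 and Apoe whatever their values (Cyp46a1 had no matched probe, and other genes that the rule names are not reported here), and the 5 genes most correlated with the mean of the 8. The array design's header names another genome build, so that coordinates are given for RefSeq windows alone.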

Additional observations from a re-analysis of the deposited data

How the results depend on the processing

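The count of the 8 genes called stayed at 0 for each drug against TBI and among the drugs under every alternative run. In TBI against Sham, where it was 1, it was 3 with quantile normalization, 2 with median centring, with normexp, with the series table and with slide as a random term (25.8%, 25.5%, 16.7%, 25.4% and 20.2% of all probes in that order, so that 2 of 8 is near the background with median centring and the series table), 0 with no filter on dim probes (6.31%) and 0 with the methods' t-test, unadjusted (17.5%) or adjusted by Benjamini-Hochberg (0%). The random slide term rested on an estimated correlation of -0.058 between arrays of a slide. With Sham alone on its slide, that term cannot separate slide from group. Leaving out 1 array gave 0 to 3, beside 7.33% to 18.9% of all probes, with 0 without Sham rat 1, Sham rat 2, TBI rat 1, TBI rat 2 or imipramine rat 1 and 3 without TBI rat 3. Against Sham, imipramine and Prozac, both at 0, had 3 with quantile normalization, median centring or the series table (30.0% to 30.9% of all probes for imipramine, 18.9% to 20.7% for Prozac) and 2 with the methods' t-test, unadjusted (32.9% and 23.9%), and Zoloft had 1 with median centring or the series table (12.2% and 11.97%). Counts kept within 1.5 times under outlier spots kept and the filter on all arrays. The same replicate numbers did not pair the rats: the correlation of deviations over 26 same-number pairs had a median of 0.0047 and ran from -0.23 to 0.23, 3 of 14 arrays correlated best with their own number, and the replicate block changed no count, 1 in TBI against Sham and 0 elsewhere. Single differences that changed sign were of genes that did not pass the test, before or after, and the cause was not tested. With each array centred on its median probe they were Dhcr7 -0.19, Hmgcs1 -0.12, Insig1 -0.010, Sqle -0.080, Srebf2 -0.14 and Cyp51 -0.11 in imipramine against TBI, Dhcr7 -0.11, Hmgcs1 -0.091, Sqle -0.034, Srebf2 -0.035, Cyp51 -0.065 and Apoe -0.14 in Prozac against TBI, Idi1 -0.10, Lss -0.18 and Sqle -0.24 in imipramine against Sham, Idi1 -0.14 and Sqle -0.19 in Prozac against Sham. With the deposited series table they were Dhcr7 -0.18, Hmgcs1 -0.12, Insig1 -0.0061, Sqle -0.076, Srebf2 -0.14 and Cyp51 -0.10 in imipramine against TBI, Dhcr7 -0.11, Hmgcs1 -0.093, Sqle -0.035, Srebf2 -0.037, Cyp51 -0.067 and Apoe -0.14 in Prozac against TBI, Insig1 -0.011 in Zoloft against TBI, Idi1 -0.084, Lss -0.16 and Sqle -0.22 in imipramine against Sham, Idi1 -0.13 and Sqle -0.18 in Prozac against Sham. With quantile normalization they were Dhcr7 -0.16, Hmgcs1 -0.057, Sqle -0.012, Srebf2 -0.094 and Cyp51 -0.046 in imipramine against TBI, Dhcr7 -0.083 and Cyp51 -0.0068 in Prozac against TBI, Insig1 -0.011 and Cyp51 -0.014 in Zoloft against TBI, Lss -0.15 and Sqle -0.12 in imipramine against Sham, Idi1 -0.0023 and Sqle -0.085 in Prozac against Sham. With normexp background correction they were Idi1 0.24 in TBI against Sham, Dhcr7 -0.026 and Apoe 0.014 in imipramine against TBI, Idi1 -0.073 in Zoloft against TBI, Sqle -0.027 in imipramine against Sham, Sqle -0.12 in Prozac against Sham, Sqle -0.0095 in Zoloft against Sham. With slide as a fixed term they were Dhcr7 0.21, Cyp51 -0.024 and Srebf1 -0.32 in Zoloft against TBI, Srebf1 -0.014 in imipramine against TBI, Srebf1 -0.070 in Prozac against TBI. With slide as a random term they were Insig1 -0.0040 in Zoloft against TBI, Lss 0.0064 in Zoloft against Sham. With the replicate block they were Sqle -0.012 in imipramine against Sham, Sqle -0.022 in Prozac against Sham. Over arrays left out in turn, differences that crossed 0 had these ranges. In TBI against Sham Dhcr7 -0.28 to 0.14, Idi1 -0.44 to 0.12, Sqle -0.32 to 0.066, Cyp51 -0.29 to 0.17 and Apoe -0.20 to 0.045. In imipramine against TBI Dhcr7 -0.078 to 0.18, Hmgcs1 -0.11 to 0.36, Insig1 -0.018 to 0.50, Sqle -0.037 to 0.34, Srebf2 -0.011 to 0.21, Cyp51 -0.11 to 0.35 and Apoe -0.19 to 0.054. In Prozac against TBI Dhcr7 -0.058 to 0.20, Hmgcs1 -0.14 to 0.33, Idi1 -0.048 to 0.51, Sqle -0.047 to 0.33, Cyp51 -0.13 to 0.33 and Apoe -0.11 to 0.13. In Zoloft against TBI Dhcr7 -0.25 to 0.0070, Idi1 -0.070 to 0.49, Insig1 -0.23 to 0.30, Cyp51 -0.20 to 0.26 and Srebf1 -0.076 to 0.59. In imipramine against Sham Dhcr7 -0.24 to 0.18, Lss -0.32 to 0.50 and Sqle -0.054 to 0.16. In Prozac against Sham Dhcr7 -0.22 to 0.20, Idi1 -0.060 to 0.16, Insig1 -0.076 to 0.063, Lss -0.44 to 0.38 and Sqle -0.036 to 0.066. In Zoloft against Sham Dhcr7 -0.41 to 0.0085, Idi1 -0.069 to 0.26 and Lss -0.41 to 0.41.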
